A study of Mus musculus with 2 samples.

Results

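The genes described here are the nuclear genes of respiratory complex I and its assembly, taken as every protein-coding gene whose symbol starts with Nduf in the annotation deposited with the libraries. The rule found 46 genes among 15622 annotated genes with reads, and all 46 had reads in both libraries. By textbook role 36 of them encode structural subunits, 8 encode assembly factors (Ndufaf1 to Ndufaf8), and Ndufa4 and Ndufa4l2 carry a complex I name but are now placed with complex IV. The tissue was gastrocnemius, a fast-twitch calf muscle, of male B6CASTF1/J mice (F1 hybrids of C57BL/6J and CAST/EiJ) aged 25 days. Long-read RNA sequencing was done on total RNA, from 2 µg per library, in 1 group with 2 biological replicates and no treated or mutant animals. Both labels cite the same donor record but name different males, and the replicates were taken as separate animals. Whole muscle holds several cell types, so more muscle cells and more RNA per cell cannot be told apart here.

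Complex I is the entry point of electrons from NADH into the mitochondrial respiratory chain. Its matrix arm has an N module that oxidizes NADH and a Q module that passes the electrons through iron-sulphur clusters to ubiquinone, and its membrane arm, with a proximal and a distal part, pumps protons. The core of the membrane arm is encoded in mitochondrial DNA, all other subunits in the nucleus, and assembly factors help to build the complex without remaining in it. Skeletal muscle depends on the complex for aerobic ATP production, and defects of it cause mitochondrial myopathies and encephalopathies.

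Each read is counted once whatever its length, so levels are given as CPM, a gene's reads per 1000000 reads in annotated genes. They are not divided by length, and a read need not stand for 1 independent molecule. Replicate 2 had 1549606 such reads and replicate 1 had 1215785, and a count of 0 allows up to 1.94 and 2.47 CPM. All 7 skeletal muscle markers were present and summed to 205357 CPM (replicate 2) and 341497 CPM (replicate 1). Of 4 heart markers 2 had reads, summing to 1.29 and 4.11 CPM, and of 3 brown fat markers 1 had reads, at 2.58 and 0.823 CPM, with Ucp1 at 0. Atp2a1, the calcium pump of fast fibres, stood at 23536 CPM in replicate 2 and at 151516 CPM in replicate 1, and the other 6 muscle markers summed to 181820 and 189981 CPM. The 7 muscle markers went both ways. By the test used below 2 were higher in replicate 2, Mylpf (31911 and 19005 CPM) and Tnnt3 (3915 and 1964 CPM), 4 were lower, Atp2a1, Myh4 (9831 and 23867 CPM), Myh1 (779 and 5091 CPM) and Acta1 (65981 and 71337 CPM), and Ckm (69403 and 68718 CPM) did not pass. The 4 fibroblast markers summed to 705 and 4118 CPM, the 3 endothelial markers to 14.2 and 26.3 CPM, 2 of 3 blood markers to 507 and 322 CPM with Ptprc at 0, and the 3 nerve sheath markers to 305 and 60.0 CPM. The part of these differences in the results below was not tested.

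The deposited tables place each read in a transcript model of 1 class. The classes used here are annotated transcript, incomplete splice match (a contiguous part of an annotated intron chain, called incomplete below), new combination of annotated splice sites, new splice site, and genomic (unspliced or partly spliced). Positions refer to mm10 with GENCODE M21 annotation, and sequences are M21 transcript sequence, written 5′ to 3′ on the transcript strand.

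The 46 genes together made up 40378 CPM in replicate 2 against 15972 CPM in replicate 1, for a mean of 28175 ± 17258 CPM (SD, n = 2). That was 4.04% of gene reads in replicate 2 and 1.60% in replicate 1. The 36 subunits summed to 34415 and 14165 CPM. Subunit levels ran over a narrow range in each library, between 277 CPM (Ndufs5) and 2499 CPM (Ndufs7) around a median of 910 CPM in replicate 2, and between 119 CPM (Ndufs5) and 719 CPM (Ndufa13) around a median of 391.9 CPM in replicate 1. The highest subunit was thus 9.00 times the lowest in replicate 2 and 6.03 times in replicate 1. The 8 assembly factors summed to 526 and 212 CPM and all stood below every subunit in the same library. Across the 46 genes the levels in the libraries had a Pearson r of 0.95 and a Spearman rho of 0.840 on log2(CPM + 1), and across the 36 subunits 0.713 and 0.672, as a description over genes, which are not independent replicates.

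**Figure D1:**
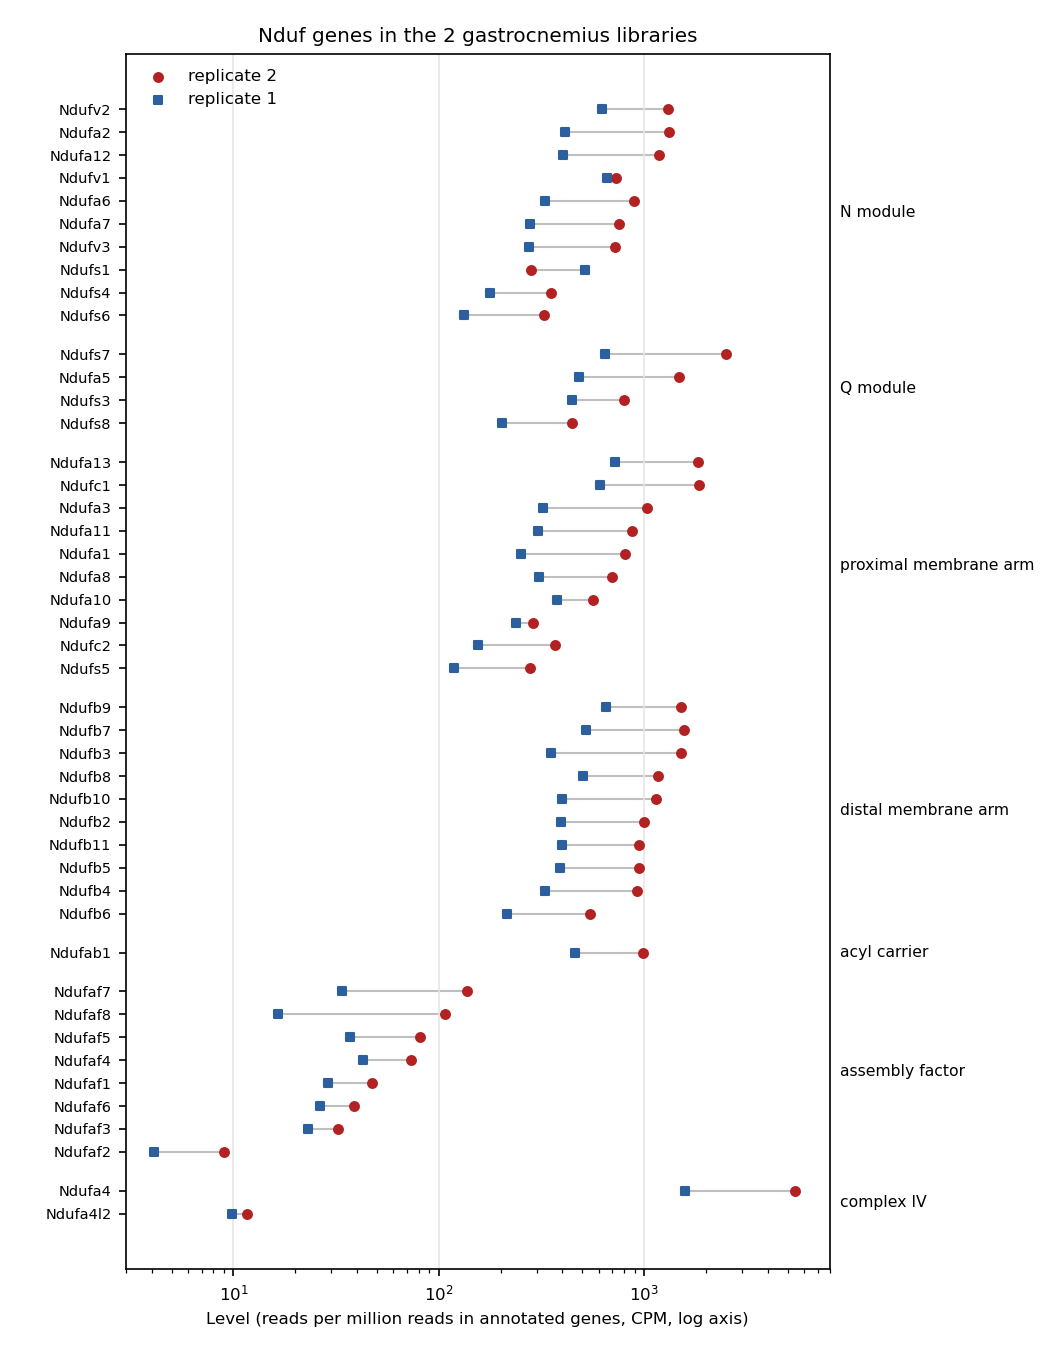
Level of 45 of the 46 Nduf genes in replicate 2 (red circles) and replicate 1 (blue squares), in CPM on a log axis, grouped by role and sorted by mean level within each group. The circles lie to the right of their squares except in Ndufs1, and the assembly factors and Ndufa4l2 lie to the left of the subunits of the same library.

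Between the libraries, 39 of the 46 genes were higher in replicate 2 than in replicate 1 and 2 were lower (two-sided Fisher exact test per gene, Benjamini-Hochberg adjustment over all 8692 genes with 10 or more reads, threshold 0.05). Of all genes tested, 17.0% were higher and 26.3% lower, and these shares also stand beside the counts by role group below. This test compares these 2 libraries and covers counting error alone, and it says nothing of a condition. The median log2 ratio of (CPM + 1), replicate 2 over replicate 1, was 1.25 over the 46 genes and -0.27 over all genes tested, so the Nduf median lay 1.53 above that of all genes. With TMM scaling (edgeR's normalization by trimmed means) and an exact binomial test per gene, 22.5% of all genes were higher and 18.4% lower, with 41 and 1 of the Nduf genes. The Nduf median then lay 1.57 above that of all genes. When the test allowed for a spread between animals, as a fixed biological coefficient of variation of 0.2 in edgeR's exact test, 29 Nduf genes were higher beside 5.98% of all genes, and none was lower beside 9.49%. With a coefficient of 0.4 no Nduf gene passed in either direction, beside 0.0690% of all genes higher and 0.0230% lower, while Fisher's exact test had passed 41.

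The N module, with 10 genes, had a sum of 7856 CPM in replicate 2 against 3807 CPM in replicate 1, and 8 genes were higher, 1 lower and 1 did not pass. Ndufv2, which carries an iron-sulphur cluster, had 1307 and 627 CPM. Ndufa2, an accessory subunit with a thioredoxin-like fold, had 1318 and 410 CPM. Ndufa12, an accessory subunit at the surface of the matrix arm, had 1181 and 401 CPM. These 3 had levels of more than 2 times those of replicate 1, whereas the large catalytic subunits of the module did not. Ndufv1, which binds FMN and NADH, had 727 CPM in replicate 2 and 660 CPM in replicate 1 (log2 ratio 0.14, adjusted p = 0.0781, Fisher's exact test). With TMM scaling and an exact binomial test it passed as higher, at a log2 ratio of 0.43. Ndufs1, the largest subunit, which holds several iron-sulphur clusters, had 282 CPM in replicate 2 and 513 CPM in replicate 1. Ndufs1 was the Nduf gene with the lowest ratio (log2 ratio -0.86, adjusted p = 7.44e-21, Fisher's exact test, 437 and 624 reads). The other 5 members were all higher, at 894 and 331 CPM for Ndufa6, which has an LYR motif, and 751 and 280 CPM for Ndufa7. Ndufv3, Ndufs4 and Ndufs6 had 721 and 276, 350 and 177, and 325 and 133 CPM. Ndufs4, whose loss in mice gives a model of Leigh syndrome, and Ndufs6, which binds zinc, were the lowest of the module by mean level.

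Ndufv3 was the Nduf gene with the clearest difference in transcript choice. Its transcripts differ by a long coding exon of 1092 nt, and in mammals the short protein and the long protein are known to replace each other in the complex by tissue. The 30 bases before and after each splice junction show the choice, with the bases after the junction in capitals; both forms share exon 2 and the final exon, on chromosome 17, plus strand (final exon starting at 31531110, long exon at 31527310).
Ndufv3 short form, exon 2 to 3: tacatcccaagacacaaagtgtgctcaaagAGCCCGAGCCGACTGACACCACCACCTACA
Ndufv3 long form, exon 2 to 3: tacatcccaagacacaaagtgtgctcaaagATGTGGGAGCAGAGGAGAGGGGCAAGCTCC
Ndufv3 long form, exon 3 to 4: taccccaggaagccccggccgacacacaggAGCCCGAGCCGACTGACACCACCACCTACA
The short form, Ndufv3-202 with 493 nt, took 1088 of 1108 spliced reads (98.2%, exact 95% interval 97.2 to 98.9%) in replicate 2 and 310 of 332 (93.4%, 90.1 to 95.8%) in replicate 1. The long form, Ndufv3-201 with 1582 nt, had 14 reads in replicate 2 and 18 in replicate 1. The proportion of the short form was 4.82 percentage points higher in replicate 2 (adjusted p = 0.00308, Fisher's exact test over all genes). The short form was thus the main one in both libraries, and the intervals did not overlap. The forms differ in length, and the ratio between the libraries varied with length over all genes. The all-gene median log2 ratio was 1.36 for transcripts of up to 500 nt and -0.16 for those of over 1500 up to 2500 nt. The part of length in the Ndufv3 difference was not tested.

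Ndufv2 also had a recurring chain without an annotated exon. Exon 2 of its main transcript, of 66 coding nt (22 codons, chr17:66091864-66091929, minus strand), was skipped in 10 reads of replicate 2 and 3 of replicate 1. The exon is in capitals, with 12 bases of each neighbouring exon.
Ndufv2 exon 2: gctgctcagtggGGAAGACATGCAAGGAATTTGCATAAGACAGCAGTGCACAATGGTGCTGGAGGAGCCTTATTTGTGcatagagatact
Ndufs1 had 2 annotated transcripts in use, of 2661 and 2590 nt, which differ in their noncoding first exon. The one of 2590 nt took 26.1% of annotated reads in replicate 2 (89 of 341) and 32.6% in replicate 1 (168 of 516), with overlapping intervals. A pair of new combinations of annotated sites over 20 exons of Ndufs1 had 38 and 15 reads in replicate 2, and 41 and 23 in replicate 1.

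Of the Q module, Ndufs7, Ndufa5, Ndufs3 and Ndufs8 are described, and all 4 were higher in replicate 2. Ndufs7, which holds the last iron-sulphur cluster before ubiquinone, was the highest subunit in replicate 2, at 2499 CPM against 645 CPM in replicate 1 (log2 ratio 1.95 ± 0.06, counting SE). Ndufa5, an accessory subunit of the matrix arm, had 1481 and 480 CPM. Ndufs3, a core subunit of the module, had 800 and 445 CPM, and Ndufs8, a core subunit with iron-sulphur clusters, had 446 and 204 CPM.

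Many Ndufs7 reads lay in a model of the 3′ end alone. The model of its last 2 of 8 exons (chr10:80255924-80256792, plus strand) held 2815 of 3872 reads in replicate 2 (72.7%, 71.3 to 74.1%) and 373 of 784 in replicate 1 (47.6%, 44.0 to 51.1%). It covers 184 of 672 coding bases of Ndufs7-201. The model is given with its start at the first base of exon 7; where each read began is not part of the count tables. The junction upstream of that start is shown with exon 7 in capitals.
Ndufs7 exon 6 to 7: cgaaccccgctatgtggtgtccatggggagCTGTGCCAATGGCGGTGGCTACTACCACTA
On annotated transcripts alone Ndufs7 stood at 605 CPM in replicate 2 and 308 CPM in replicate 1, a ratio of 1.96 where all reads gave 3.87. It was then below Ndufv2, at 1236 and 596 CPM on annotated transcripts.

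Ndufa5 showed both an incomplete model and an alternative exon. Its last exon alone held 373 of 2295 reads in replicate 2 (16.3%) and 59 of 584 in replicate 1 (10.1%). The annotated Ndufa5-202 lacks exon 3 of Ndufa5-201, which has 117 coding nt (39 codons, chr6:24522659-24522775, minus strand), in capitals below.
Ndufa5 exon 3: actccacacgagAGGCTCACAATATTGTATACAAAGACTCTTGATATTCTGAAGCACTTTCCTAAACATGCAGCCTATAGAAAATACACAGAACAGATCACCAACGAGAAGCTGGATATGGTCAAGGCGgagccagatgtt
Ndufa5-202 took 152 of 1820 annotated reads in replicate 2 (8.35%, 7.12 to 9.72%) and 30 of 499 in replicate 1 (6.01%, 4.09 to 8.47%), with overlapping intervals. In Ndufs8, Ndufs8-201 took 16.3% and 18.3% of annotated reads beside a transcript of 780 nt that took most, from which it differs in the first exon.

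The proximal membrane arm, with 10 genes, had a sum of 8607 CPM in replicate 2 against 3402 CPM in replicate 1, and all 10 were higher in replicate 2. Ndufc1, a small membrane subunit, had 1858 and 609 CPM. Ndufa13, also known as Grim19, had 1834 and 719 CPM and was the highest subunit in replicate 1. Ndufa3, a small membrane subunit, had 1037 and 321 CPM. Below these came Ndufa11, a membrane subunit at the contact with complex III in supercomplexes, at 876 and 306 CPM, and the X-linked Ndufa1, at 805 and 251 CPM. Ndufa8, of the intermembrane space, had 697 and 308 CPM. Ndufa10, related to nucleoside kinases, had 566 and 378 CPM, and Ndufc2, a partner of Ndufc1 in the membrane, had 368 and 156 CPM. The smallest difference of the group was that of Ndufa9, which sits where both arms meet, with 288 and 237 CPM (log2 ratio 0.28, adjusted p = 0.0243, Fisher's exact test). On annotated transcripts alone, scaled to the total of annotated reads, its log2 ratio was 0.10 and did not pass.

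Ndufs5, an intermembrane-space subunit, was listed lowest of all subunits, at 277 CPM in replicate 2 and 119 CPM in replicate 1. Its level is uncertain, because the processed pseudogene BC002163 is 99.4% identical to it over 60.8% of the transcript and was given 313 reads in replicate 2 and 84 in replicate 1, beside 430 and 145 for Ndufs5. With both summed the level was 479 and 188 CPM, and Ndufs5 was then not the lowest subunit in either library. Of the 8 Nduf genes with a copy of at least 90% identity over at least 50% of the transcript, 1 other had reads on its copy, Ndufs3 with 2 in each library.

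Ndufa13 had no read on an annotated transcript, although its main model holds the whole coding sequence. Its model of 4 exons (chr8:69894180-69901732, minus strand) held 97.0% of 2842 reads in replicate 2 and 99.1% of 874 in replicate 1 and covers 432 of 432 coding bases. M21 lists a noncoding exon before these 4, which makes the model incomplete by class. A chain with a splice site 4 nt from an annotated one held a further 50 reads in replicate 2 and 5 in replicate 1. Ndufa11 had 2 recurring chains, one with a new site 7 nt from an annotated one (24 and 6 reads) and one that skipped exon 3, of 123 coding nt (41 codons, chr17:56721319-56721441, plus strand), in 6 and 2 reads.
Ndufa11 exon 3: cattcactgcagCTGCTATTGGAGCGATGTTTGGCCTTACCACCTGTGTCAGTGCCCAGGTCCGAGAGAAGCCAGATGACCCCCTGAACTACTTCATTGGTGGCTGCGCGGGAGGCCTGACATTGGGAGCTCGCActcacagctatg
In Ndufa10, 175 of 877 reads in replicate 2 (20.0%) and 11 of 459 in replicate 1 (2.40%) were genomic, the largest number of genomic reads of the Nduf genes in replicate 2.

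The distal membrane arm, with 10 genes, had the largest sum of the modules, 11267 CPM in replicate 2 and 4156 CPM in replicate 1. All 10 were higher in replicate 2 by more than 2-fold, beside 15.4% of all genes tested that were over 2-fold higher. Ndufb7, of the intermembrane space, had 1564 and 523 CPM. Ndufb3, a small membrane subunit, had 1517 and 351 CPM. Ndufb9, an LYR-motif subunit that binds the acyl carrier, had 1513 and 653 CPM. These 3 led in replicate 2, but Ndufb3 was among the lower members in replicate 1. Its log2 ratio, 2.11 ± 0.08 (counting SE), was the highest of all subunits. Ndufb8, a membrane subunit whose protein is often used as a marker of assembled complex I, had 1172 and 502 CPM, and Ndufb10, of the intermembrane space, had 1140 and 400 CPM. The small membrane subunit Ndufb2 had 1003 and 392.3 CPM and the X-linked Ndufb11 had 949 and 400 CPM. The accessory subunits Ndufb5, Ndufb4 and Ndufb6 had 941 and 391, 926 and 330, and 543 and 214 CPM.

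Most reads of Ndufb3 lay in an incomplete model. Its last exon alone (chr1:58595649-58595964, plus strand) held 1740 of 2351 reads in replicate 2 (74.0%, 72.2 to 75.8%) and 272 of 427 in replicate 1 (63.7%, 58.9 to 68.3%), and covers 154 of 312 coding bases. The junction before it is shown with the last exon in capitals.
Ndufb3 exon 2 to 3: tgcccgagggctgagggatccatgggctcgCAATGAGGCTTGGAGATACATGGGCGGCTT
On annotated transcripts alone Ndufb3 stood at 387 CPM in replicate 2 and 127 CPM in replicate 1. Its ratio there was 3.06, where all reads gave 4.32.

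Ndufb2 was the Nduf gene with the most even use of 2 transcripts. The transcripts of 4371 and 455 nt encode the same protein and differ in their last exon, and took 48.6% and 50.5% of annotated reads in replicate 2, and 48.4% and 51.0% in replicate 1. In Ndufb9, a recurring chain skipped exon 3, of 114 coding nt (38 codons, chr15:58937352-58937465, plus strand), in 13 and 7 reads.
Ndufb9 exon 3: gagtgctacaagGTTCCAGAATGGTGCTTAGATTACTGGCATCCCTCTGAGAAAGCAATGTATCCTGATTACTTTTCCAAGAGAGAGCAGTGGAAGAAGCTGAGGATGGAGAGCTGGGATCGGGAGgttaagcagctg
A chain of Ndufb11 with 2 new sites had 20 and 8 reads.

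Ndufab1, the mitochondrial acyl carrier protein, is bound in both arms of complex I and also serves in lipoate and iron-sulphur cluster synthesis. It had 993 CPM in replicate 2 and 461 CPM in replicate 1 and was higher. It was the other gene past the threshold for transcript choice. Its main transcript of 1416 nt took 1384 of 1533 spliced reads in replicate 2 (90.3%, 88.7 to 91.7%) and 474 of 560 in replicate 1 (84.6%, 81.4 to 87.5%; adjusted p = 0.0214, Fisher's exact test over all genes). A chain with a splice site 78 nt from an annotated one held 78 reads in replicate 2 and 41 in replicate 1, the most of any recurring unannotated chain. Ndufab1-201 had 39 and 31 reads. On annotated transcripts alone, where 2.55% of genes passed, the 2 Nduf genes past the threshold were Ndufv3 and Ndufv1, and Ndufab1 did not pass.

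The assembly factors had levels of 9.03 to 137 CPM in replicate 2 and 4.11 to 42.8 CPM in replicate 1, and 5 of 8 were higher, with none lower. Ndufaf8, a partner of Ndufaf5, had 107 CPM in replicate 2 and 16.5 CPM in replicate 1, the highest ratio of the 46 genes (log2 ratio 2.63 ± 0.34, counting SE, 166 and 20 reads). Ndufaf7, a mitochondrial methyltransferase, had 137 and 33.7 CPM. Ndufaf5, which hydroxylates Ndufs7, had 81.3 and 37.0 CPM. Ndufaf4, which acts with Ndufaf3 on the Q module, had 72.9 and 42.8 CPM (adjusted p = 0.00433, Fisher's exact test). Ndufaf1, a member of the assembly complex of the membrane arm, had 47.1 and 28.8 CPM (adjusted p = 0.0374, Fisher's exact test). That call was lost with no filter on reads, when 38 Nduf genes and 8.94% of all genes were higher. The 3 that did not pass were Ndufaf6 at 38.7 and 26.3 CPM, Ndufaf3 at 32.3 and 23.0 CPM, and Ndufaf2, a relative of Ndufa12 that acts late in assembly, at 9.03 and 4.11 CPM from 14 and 5 reads.

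Annotated reads alone gave another account of these genes, and with them Ndufaf1, Ndufaf4, Ndufaf5 and Ndufaf7 no longer passed. In that test 33 of 45 Nduf genes were higher beside 13.4% of all genes, and 2 were lower beside 37.6%. In Ndufaf7, single-exon incomplete models held 181 of 213 reads in replicate 2 (interval of the share 79.5 to 89.5%) and 17 of 41 in replicate 1 (26.3 to 57.9%). They were 140 to 299 nt long, between chr17:78946875 and 78947932, and not all lay within the last exon of Ndufaf7-201. The annotated transcript kept 26 and 18 reads, which is 16.8 and 14.8 CPM. The junction before the last exon of Ndufaf7-201, which starts at 78946875, is shown with that exon in capitals.
Ndufaf7 exon 9 to 10: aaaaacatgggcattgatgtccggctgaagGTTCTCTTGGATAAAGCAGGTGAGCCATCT
In Ndufaf5 a chain of 3 exons with a splice site 87 nt from an annotated one had 33 and 6 reads. The main transcript of Ndufaf5, of 11 exons, had 33 and 22 reads, so the chain covers only a part of the gene. In Ndufaf6 a recurring chain skipped exon 4, of 57 coding nt (19 codons, chr4:11066651-11066707, minus strand), in 17 reads of replicate 2 and 10 of replicate 1, beside 36 and 17 on the main transcript. Every junction of that chain is annotated, and only their combination is new.
Ndufaf6 exon 4: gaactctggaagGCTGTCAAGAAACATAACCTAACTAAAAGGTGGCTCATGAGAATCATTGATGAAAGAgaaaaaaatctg

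Ndufa4, now counted as a subunit of cytochrome c oxidase (complex IV), was the highest of the 46 genes in both libraries, with 5426 CPM in replicate 2 and 1584 CPM in replicate 1 (log2 ratio 1.78 ± 0.04, counting SE). Its model of the last 2 of 4 exons (chr6:11900292-11905262, minus strand) held 62.3% of 8408 reads in replicate 2 (61.2 to 63.3%) and 45.2% of 1926 in replicate 1 (42.9 to 47.4%), and covers 115 of 246 coding bases. The junction before the model's start is shown with exon 3 in capitals.
Ndufa4 exon 2 to 3: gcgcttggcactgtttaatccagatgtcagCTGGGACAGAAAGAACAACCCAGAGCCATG
On annotated transcripts alone it had 1993 and 851 CPM, a ratio of 2.34 where all reads gave 3.43. Ndufa4l2, a relative known to be induced by hypoxia, had 18 and 12 reads, or 11.6 and 9.87 CPM (adjusted p = 0.819, Fisher's exact test).

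Over all 46 genes, annotated transcripts held 74.5% of reads in replicate 2 (74.2 to 74.8%) and 82.8% in replicate 1 (82.3 to 83.4%), and incomplete models held 23.4% and 14.7%. In all other annotated genes the annotated share was 70.4% and 65.6% and the incomplete share 15.3% and 9.19%. New splice sites held 0.999% and 1.29% of Nduf reads, against 4.41% and 17.5% in the other genes. Genomic reads held 0.550% and 0.211%, against 7.13% and 2.33%. Annotated transcripts held under 50% of the reads of 6 Nduf genes in replicate 2 (Ndufa13, Ndufaf7, Ndufs7, Ndufb3, Ndufaf5 and Ndufa4) and of the first 5 of these in replicate 1, where Ndufa4 had 53.7%. They held over 80% in 31 and 39 of the 46 genes. Ndufa4, Ndufa13, Ndufs7 and Ndufb3, picked after their values were seen, held 86.8% of the incomplete Nduf reads in replicate 2 and 84.8% in replicate 1, and without them the annotated share was 93.1% and 94.2%. The median annotated share per gene was 93.0% and 95.2%. The incomplete or genomic share was larger in replicate 2 than in replicate 1 in 37 of 46 genes and smaller in 9.

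**Figure D2:**
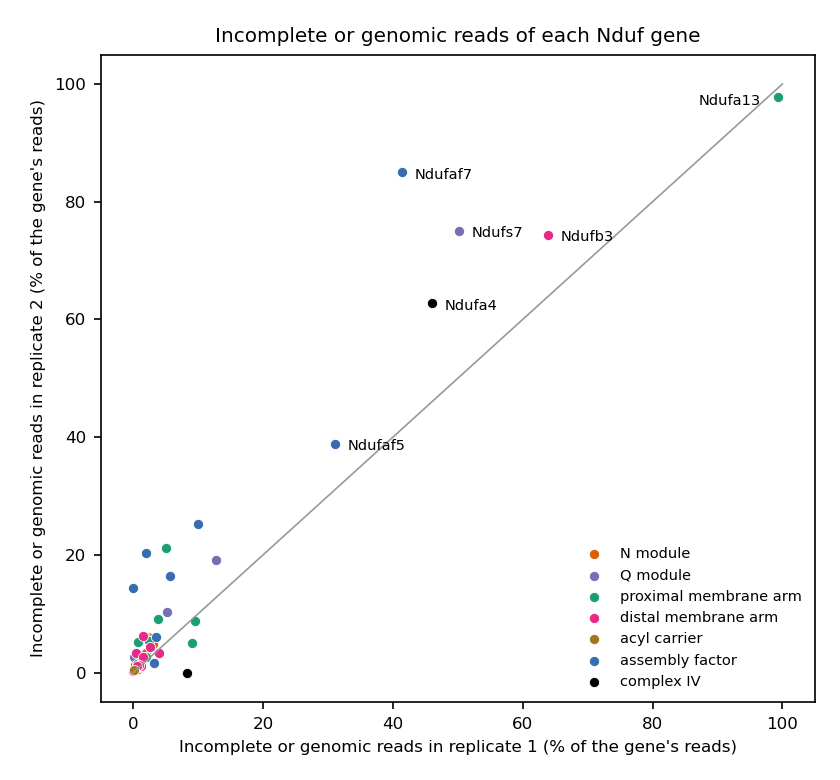
Share of the reads of 45 Nduf genes that fell in incomplete or genomic models, replicate 2 on the y axis and replicate 1 on the x axis, in % of the gene's reads, coloured by role, with the diagonal marking equal shares. Ndufaf7, Ndufs7 and Ndufa4 lie far above the diagonal, Ndufa13 lies near the top right corner, and 32 of the 45 genes lie under 10% in both libraries.

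**Figure D3:**
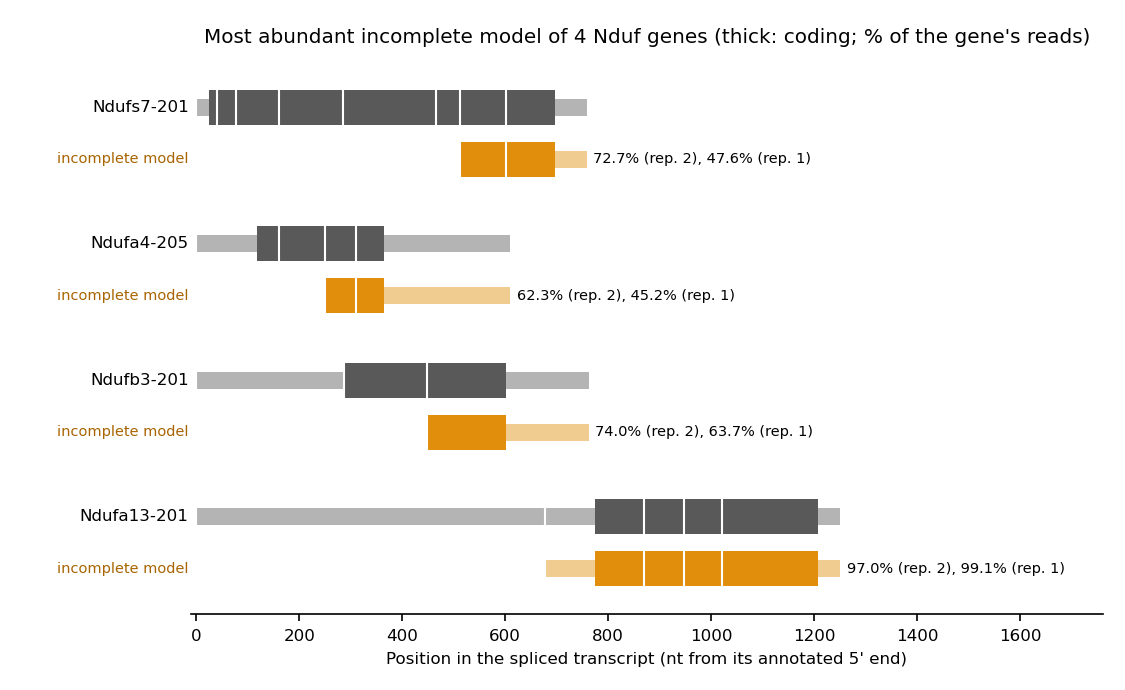
Annotated transcript (grey) and most abundant incomplete model (orange) of Ndufs7, Ndufa4, Ndufb3 and Ndufa13, drawn to scale in nt of the spliced transcript from its annotated 5′ end, with coding sequence thick, exon borders in white and the share of the gene's reads in each library beside the model. The models of Ndufs7, Ndufa4 and Ndufb3 lack the start of the coding sequence, while that of Ndufa13 holds all of it.

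The ratio between the libraries varied with transcript length in the Nduf genes as in all genes. The main annotated transcripts of 45 Nduf genes had a median annotated length of 861 nt, against 2535 nt over 8207 genes. Pearson's r of log2 length with the log2 ratio was -0.58 over the 45 Nduf genes, -0.71 over 35 subunits and -0.57 over the 8207 genes, given as a description across genes that share the same 2 libraries. Among transcripts of over 500 up to 1000 nt, 22 of 24 Nduf genes were higher, beside 61.3% of all genes of that length, with median log2 ratios of 1.43 and 0.98. Among those of over 1000 up to 1500 nt, 8 of 10 were higher, beside 33.2% of all genes, with medians of 0.97 and 0.50. Among those of over 1500 up to 2500 nt, 4 of 6 were higher, beside 10.8%. Of the 3 Nduf genes with transcripts of up to 500 nt all were higher, beside 63.6% of all genes, and of the 2 over 2500 nt Ndufaf4 was higher and Ndufs1 lower, beside 5.03% higher and 43.4% lower. By annotated length, long transcripts did not share 1 direction. Ndufs1 (2661 nt) was lower and Ndufv1 (1661 nt) did not pass. Ndufv2 (1697 nt), Ndufs4 (1698 nt), Ndufaf7 (1749 nt), Ndufa10 (2020 nt) and Ndufaf4 (3632 nt) were higher, with log2 ratios of 1.06, 0.98, 2.00, 0.58 and 0.76. On annotated transcripts alone, scaled to the total of annotated reads, these ratios were 0.95, 0.83, 0.08, 0.23 and 0.27, and Ndufaf7 and Ndufaf4 no longer passed. Most Ndufaf7 reads of replicate 2 lay in incomplete models of 140 to 299 nt. The part of length in the Nduf differences was not tested.

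**Figure D4:**
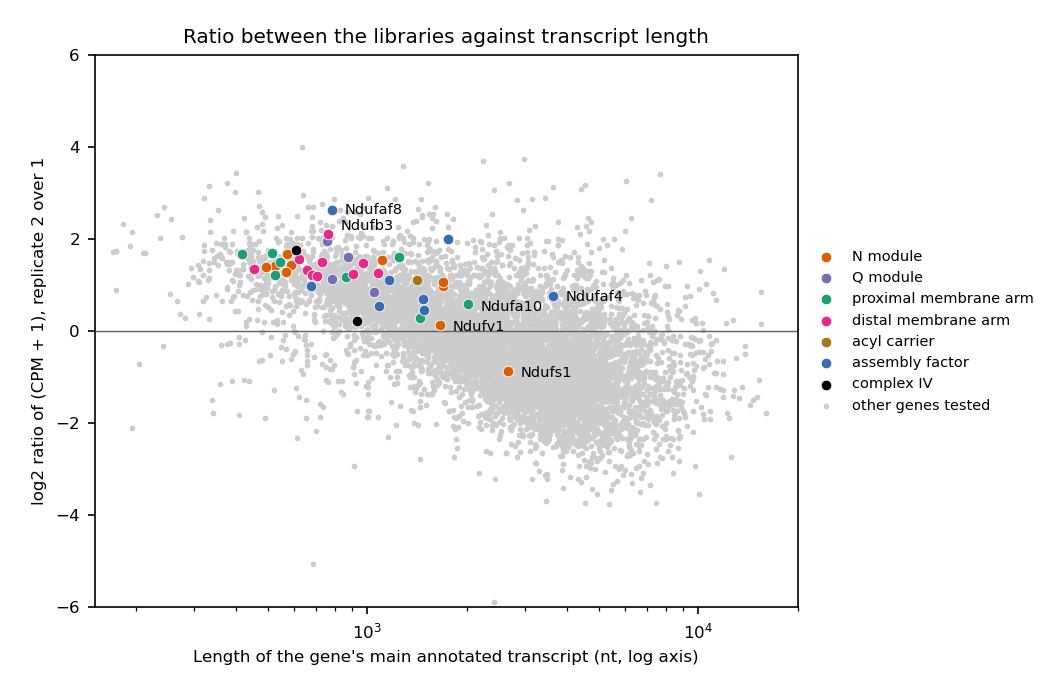
Log2 ratio of (CPM + 1), replicate 2 over replicate 1 (y axis), against the annotated length of each gene's main transcript in nt (x axis, log scale), for 44 Nduf genes coloured by role and for 8143 other genes tested (grey; a further 19 lie outside the axes). The Nduf genes lie towards the short, high end of the cloud of all genes, and Ndufs1 is the lowest of them.

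Most Nduf genes used 1 annotated transcript. M21 lists 226 transcripts for the 46 genes, of which 115 had reads and 89 had reads in both libraries. In 39 of the 45 genes with annotated reads, 1 transcript held over 90% of them in both libraries, a count not made over all genes. In 7 genes (Ndufa5, Ndufaf1, Ndufaf4, Ndufaf8, Ndufb2, Ndufs1 and Ndufs8) at least 2 transcripts each held 5% or more in both. Transcripts annotated as protein-coding took 99.1% of annotated Nduf reads in replicate 2 and 99.3% in replicate 1, against 94.4% and 96.7% over all genes, and retained-intron transcripts 0.633% and 0.361%, against 2.20% and 0.819%. Transcript choice differed between the libraries in 2 of 42 Nduf genes with 20 or more spliced reads in each library, 4.76% beside 2.43% of 2793 genes tested. With 10 or more reads the count was 2 beside 1.72% of genes, and with 50 or more 2 beside 3.69%, so the count rests on 2 genes under each minimum. The part of transcript length in these differences was not tested.

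**Figure D5:**
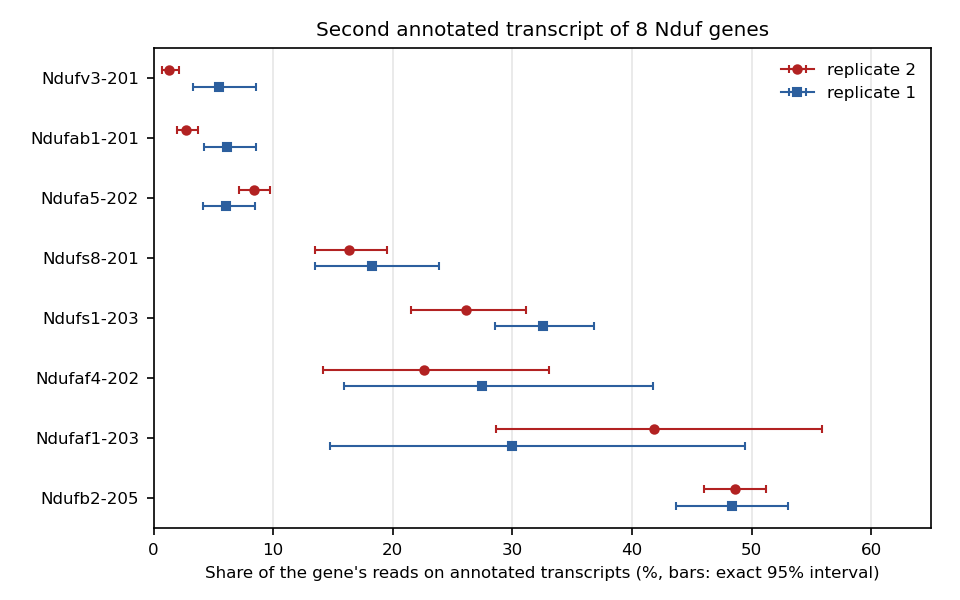
Share of a second annotated transcript in the gene's reads on annotated transcripts, in % with exact 95% intervals, for 8 Nduf genes in replicate 2 (red circles) and replicate 1 (blue squares). The intervals do not overlap for Ndufv3-201 and Ndufab1-201 and overlap for the other 6 transcripts.

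Unannotated splicing held few of the reads. The 46 genes had 417 unannotated intron chains, 265 of them with 1 read, and 99 (23.7%) were found in both libraries, against 15.1% of 42937 chains over all genes. The 99 recurring chains, in 37 genes, held 639 reads in replicate 2 and 330 in replicate 1. New splice sites were present in 74 of them, and in 43 every new site lay within 10 nt of an annotated one. In 15 chains, of 12 genes, an exon of the main transcript was skipped; in 14 of these the exon was wholly coding, and in 9 the coding bases skipped were a multiple of 3. Of the coding exons skipped, those of Ndufaf6, Ndufb9 and Ndufv2 had most reads, and those of Ndufa11 (6 and 2 reads) and of 144 nt in Ndufaf7 (4 and 4 reads) came next. The junctions that skip the exons of Ndufaf6 and Ndufaf7 are annotated, while those of Ndufb9, Ndufv2 and Ndufa11 are not. Among the 10 recurring chains with most reads, those of Ndufv2 (18 and 7 reads) and Ndufa4 (20 and 1) complete the ones described.

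The mitochondrially encoded subunits, which form the proton-pumping core of the membrane arm, moved in the same direction. All 5 with 10 or more reads were higher in replicate 2 than in replicate 1, beside 17.0% of all genes tested. mt-Nd1 had 527 and 118 CPM, mt-Nd2 had 422 and 124 CPM, mt-Nd4 had 264 and 50.2 CPM, mt-Nd5 had 146 and 55.1 CPM, and mt-Nd3 had 9.03 and 1.65 CPM. mt-Nd4l and mt-Nd6 had 3 and 1 reads in replicate 2 and no read in replicate 1. The 7 genes summed to 1370 and 350 CPM, so the reads of the nuclear subunits far outnumbered those of the mitochondrial ones in these libraries. All mitochondrially encoded genes together held 0.76% of gene reads in replicate 2 and 0.16% in replicate 1. How fully the libraries recovered mitochondrial transcripts was not tested. The read counts therefore do not give the balance of nuclear and mitochondrial subunit RNA in the muscle.

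Of 11 assembly factors with other names, 10 were found under that symbol and tested. Among them 4 were higher and none lower, beside 17.0% higher and 26.3% lower of all genes tested. Tmem70 had 293 and 140 CPM, Ecsit had 162 and 79.8 CPM, Dmac1 had 52.3 and 14.8 CPM, and Timmdc1 had 11.6 and 1.65 CPM. Ecsit and Tmem70 thus stood above all of Ndufaf1 to Ndufaf8 in both libraries. Acad9, the acyl-CoA dehydrogenase that works with Ecsit and Ndufaf1, had 19.4 and 29.6 CPM and did not pass (adjusted p = 0.186, Fisher's exact test). Ndufb1-ps falls outside the rule because M21 types it as a noncoding RNA, while RefSeq lists a gene Ndufb1; it had 876 and 249 CPM, a level within the range of the distal membrane arm.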

How the data were processed

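The deposited tables, made by the authors, give whole read counts per transcript model, with exon number and length. Per the file headers and accompanying text, reads were placed on mm10, and models were GENCODE M21 transcripts or new ones made by TALON, separately per library. The aligner, the read filters and whether strand was used were not given in the sources used here.

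Gene counts were the sum over every class of model, without spike-ins (2.88% of reads in replicate 2 and 3.95% in replicate 1), and scaled to CPM. CPM values on annotated transcripts, and ratios of these CPM, also used the total of all gene reads. Tests and log2 ratios on annotated transcripts alone, or without some classes, used the total of the reads kept. Genes with 10 or more reads were compared by Fisher's exact test (SciPy 1.17.1), Benjamini-Hochberg adjusted, threshold 0.05, with a pseudocount of 1 CPM for log2 ratios. Transcript choice was tested as the share of the top transcript among annotated and new spliced models. Unannotated models were matched by exact intron chain. Intervals are exact 95% Clopper-Pearson intervals; intervals, limits for a count of 0 (3 counts) and tests cover counting error only, since reads may not be independent molecules. Copies were found with BLAST 2.17.0. Alternatives used edgeR 4.0.16 and DESeq2 1.42.0 in R 4.3.3. With TMM or DESeq2 scaling, the test per gene was an exact binomial test of its counts in the 2 libraries. Scripts were tested on simulated data.

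The members, role lists and tests were chosen with earlier results of these data known. Named genes follow a rule: up to 4 per role by mean CPM, the 5 highest and 5 lowest ratios with 20 or more reads, those past the transcript test, copies, and the 10 recurring chains with most reads. Other members are named to account for the rest; 1 member of the rule's list is counted in totals but not reported here by itself.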

Additional observations from a re-analysis of the deposited data

How the results depend on the processing

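The count of Nduf genes higher in replicate 2 was 39 and lay between 29 and 42 under all alternatives but edgeR's exact test with a fixed biological coefficient of variation of 0.4, which left 0. The count lower was 2, and became 1 with edgeR's TMM factors, 1 with DESeq2 size factors, 0 with a coefficient of 0.2 and 0 with 0.4. The median log2 ratio, 1.25, moved to 1.55 with TMM, 1.57 with DESeq2 size factors, 1.12 on annotated transcripts only and 1.41 without incomplete splice matches and genomic reads. Of 403 values of single genes under the alternatives, 338 kept direction and side of the threshold, 58 no longer passed, 40 of them at a coefficient of 0.4, and 7 passed newly. Leaving out each library gave a summed level between 15972 and 40378 CPM and an annotated share between 74.5% and 82.8%. Leaving out a library leaves no comparison between libraries, so the counts and the median have no such value. Transcript choice differed in 2 Nduf genes under every alternative, but not in the same 2. They were Ndufab1 and Ndufv3 under each minimum of reads, and Ndufv1 and Ndufv3 on annotated transcripts only. Added after the data were seen, counting the Ndufa13 model with the whole coding sequence as annotated gave a mean annotated share of 83.1%, leaving out Ndufa4, Ndufa13, Ndufs7 and Ndufb3 gave a summed level of 29102 and 12672 CPM, and adding the copy's reads gave Ndufs5 a log2 ratio of 1.34. No paired analysis was possible because there is 1 group. Both libraries limit the low genes: Ndufaf2 had 14 and 5 reads, too few to place its ratio.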

Other observations

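Nduf genes often had a neighbour that starts close by on the opposite strand. In 13 of 46 (28.3%) the start of another protein-coding gene lay within 1000 nt in head-to-head orientation, against 6.76% of protein-coding genes of M21 and 11.3% of those with 10 or more reads. All 13 neighbours had a lower mean level than the Nduf gene, and 7 of the 13 had a higher level in replicate 2 than in replicate 1. Rps28, a ribosomal protein gene whose start lies 10 nt from that of Ndufa7, came closest, with 447 CPM in replicate 2 and 133 CPM in replicate 1 beside 751 and 280 CPM for Ndufa7. Ik, 99 nt from Ndufa2, had 43.2 and 40.3 CPM beside 1318 and 410 CPM. Tatdn1, 18 nt from Ndufb9, had 25.2 and 15.6 CPM beside 1513 and 653 CPM. Phf14, 312 nt from Ndufa4, had 11.0 and 10.7 CPM, and Morn5, 52 nt from Ndufa8, had no read in either library, which allows up to 1.94 and 2.47 CPM.

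Exon bases are shared with another gene in 19 of the 46, with a protein-coding gene in 16. Since use of strand is not known, reads of such partners could not be told apart by strand; the partner with most reads was Smim27 of Ndufb6, with 165 and 26 reads beside 841 and 260. Models classed as antisense over Nduf genes had 86 reads in replicate 2 and 24 in replicate 1, or 0.137% and 0.124% of the sense reads.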
